A study of Mus musculus with 23 samples.

Results

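The renin-angiotensin system genes described here are the 7 rows of a testis count table whose symbol is Agt, Ace, Agtr1a, Atp6ap2, Enpep, Lnpep or Mas1, of 28861 genes in the table, and all 7 passed the filter on low counts. The genes were chosen by their levels in the 3 strains in these same libraries, Agt foremost, so strain differences of members are given as a description without a test, while diet was not used for the choice and was tested. Testis RNA was sequenced from 23 libraries of male mice of 3 inbred strains, all labelled wild type with no other treatment: NZO/HlLtJ, which is prone to obesity and diabetes (4 libraries for 44% fat, 4 for 10% fat), CAST/EiJ, which is derived from wild mice (4 and 3), and C57BL/6J, which the mouse reference genome was read from (4 and 4). The 44% fat diet was rich in sugar as well, the 10% fat diet was the control, both held added fiber, and mice were put on them at 6 weeks of age and sampled at 16 weeks. The study sets strain and diet against each other as 2 factors of gene expression.

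In the renin-angiotensin system the protease renin cuts the precursor angiotensinogen, angiotensin-converting enzyme turns the product into angiotensin II, and aminopeptidases trim that peptide further. Angiotensin II acts through type 1 receptors on vessel tone and salt balance, and shorter peptides act through other receptors such as Mas. In the testis the system is best known for a germ cell form of angiotensin-converting enzyme, made in spermatids from a promoter inside the gene, which sperm need for normal fertility in mice.

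Each NZO/HlLtJ library held 31.9 to 43.4 M estimated counts (M, 1e+06), each CAST/EiJ library 33 to 78.7 M, and each C57BL/6J library 21.9 to 38.4 M. Some libraries stood apart from their group. The epididymal gene Crisp1 reached 99 CPM in CAST/EiJ 44% fat replicate 2 and 13 CPM in C57BL/6J 10% fat replicate 2, and at most 1.29 CPM in the other libraries. C57BL/6J 10% fat replicate 4 scored 43.9 on the third principal component of all tested genes, where the other libraries lay between -23.1 and 11.5. NZO/HlLtJ 44% fat replicate 3 and 10% fat replicate 4 scored 32 and 27.4 on the fourth. The others lay between -21.7, in NZO/HlLtJ 10% fat replicate 1, and 8.45 there, so NZO/HlLtJ libraries spread to both sides. The calls reported were also counted without these 5 libraries. Markers of testis cells were present in every library, with elongating spermatid genes summing to at least 8439 CPM and Sertoli cell genes to at least 151 CPM. Levels are counts per 1e+06 counts (CPM) scaled between libraries, and CPM per kb of exon where genes are compared with each other. The labels give each library an ID of its own but do not say that each is a separate animal, so p values measure the spread between these libraries. In whole testis, fewer cells of a type and less RNA per cell cannot be told apart. The genome build named by the submitters is that of C57BL/6J, so counting of reads that carry NZO/HlLtJ or CAST/EiJ variants goes with strain by design, and its part cannot be told apart from a strain difference in RNA.

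The promoters of Agt and Ace are shown because these members lead the results, and their letters come from RefSeq on GRCm38.p6, the C57BL/6J sequence, so they say nothing of the other strains. The first lies in front of Agt, at chr8:124569707-124569956 on the minus strand, and belongs to the member that differed most between strains. The second, at chr11:105967698-105967947 on the plus strand, lies in front of the long somatic transcript of Ace, and the third, at chr11:105974939-105975188 on the plus strand, lies in front of the germ cell transcript of the same gene, which is the most abundant member. Each is printed 5′ to 3′ as the 250 bases before the transcript start, with the motif in capitals.
Agt promoter: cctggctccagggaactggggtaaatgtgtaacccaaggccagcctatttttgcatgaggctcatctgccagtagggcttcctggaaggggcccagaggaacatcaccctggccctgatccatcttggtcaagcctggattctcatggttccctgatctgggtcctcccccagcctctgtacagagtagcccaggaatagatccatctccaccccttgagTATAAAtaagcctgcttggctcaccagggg
Ace somatic promoter: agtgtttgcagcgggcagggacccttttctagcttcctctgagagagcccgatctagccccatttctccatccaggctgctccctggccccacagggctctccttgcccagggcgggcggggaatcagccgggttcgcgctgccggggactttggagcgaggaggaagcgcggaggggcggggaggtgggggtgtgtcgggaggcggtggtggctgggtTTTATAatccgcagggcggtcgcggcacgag
Ace germ cell promoter: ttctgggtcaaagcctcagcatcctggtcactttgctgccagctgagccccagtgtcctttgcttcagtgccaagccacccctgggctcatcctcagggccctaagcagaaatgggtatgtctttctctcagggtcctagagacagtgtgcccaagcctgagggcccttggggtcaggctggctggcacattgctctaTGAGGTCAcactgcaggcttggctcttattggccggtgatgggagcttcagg
The capitals mark TATAAA in Agt, where it begins 30 bases before the start, the same letters on the reverse strand (TTTATA) in the somatic Ace promoter, 31 bases before the start, and TGAGGTCA in the germ cell Ace promoter, 52 bases before the start. TGAGGTCA differs by a letter from the cAMP response element TGACGTCA, and its place in the germ cell promoter of Ace is well known. Among 32851 promoter windows of 250 bases searched on both strands, 12.4% held TATAAA, 1.94% held TGAGGTCA and 1.55% held TGACGTCA. The motifs were chosen with these sequences in view and a match is a description, not a binding site. By symbol, 6 of the 7 members were matched to promoters, all but Agtr1a.

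Ace, Agt and the receptors were not expressed at similar levels. Per kb of exon, Ace stood first in every strain, at 107 CPM per kb in NZO/HlLtJ, 112 in CAST/EiJ and 122 in C57BL/6J. Agt was second in C57BL/6J with 95.5 CPM per kb, but had 2.11 in NZO/HlLtJ and 0.858 in CAST/EiJ. Mas1 had 11.4, 16.8 and 15.2 CPM per kb in NZO/HlLtJ, CAST/EiJ and C57BL/6J. Atp6ap2 had 7.17, 5.76 and 5.25 CPM per kb in the same order and came next after Mas1 in NZO/HlLtJ and CAST/EiJ, while in C57BL/6J Agtr1a stood between them. Agtr1a had 4.59 CPM per kb in NZO/HlLtJ, 0.237 in CAST/EiJ and 6.6 in C57BL/6J. Lnpep, with 1.81, 1.44 and 1.95 CPM per kb in the same order, and Enpep, with 0.164, 0.294 and 0.098, were the lowest members in C57BL/6J.

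**Figure D1:**
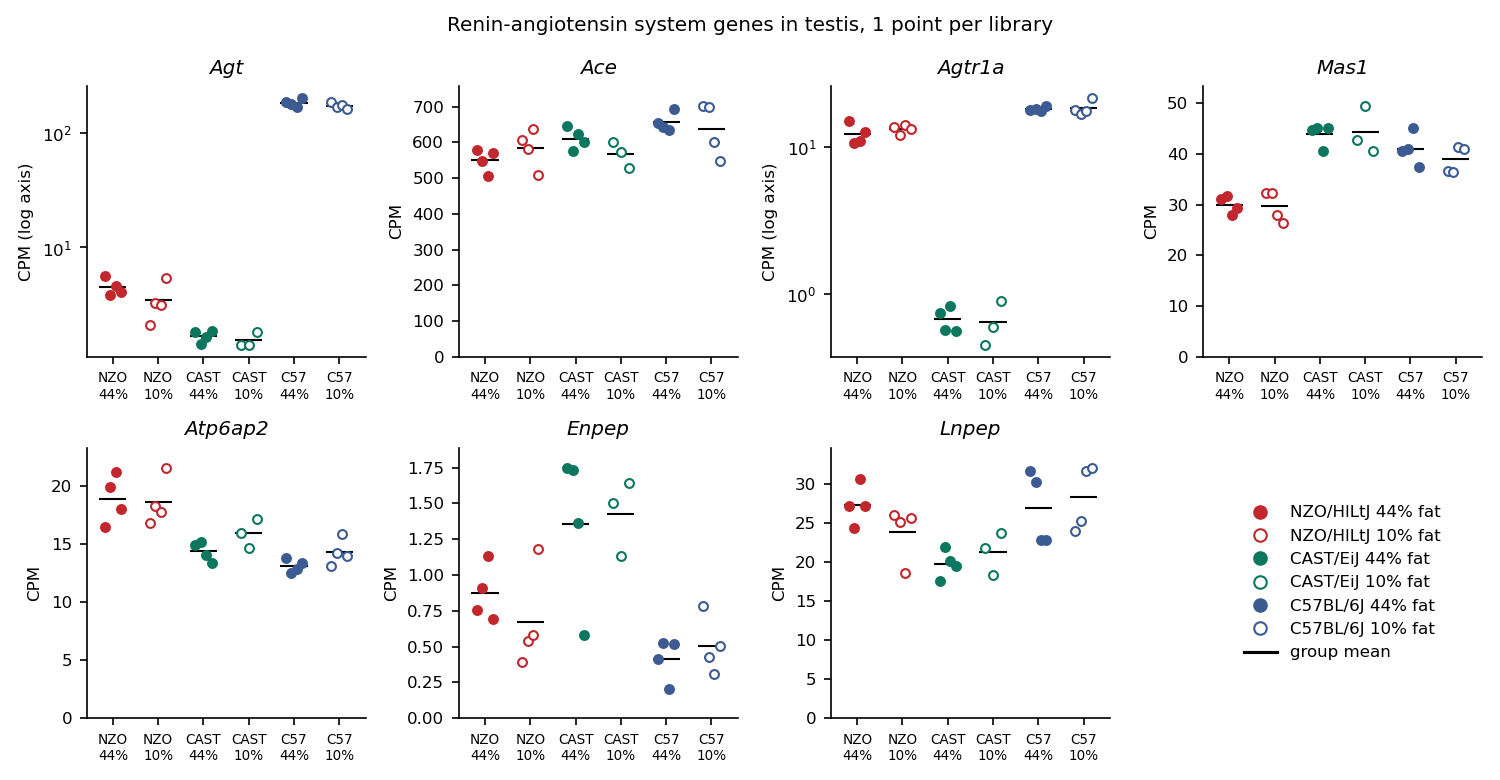
Each panel plots a member's level in CPM for all 23 libraries, with filled points for 44% fat and open points for 10% fat, a line at each group mean, and log axes for Agt and Agtr1a only. Agt sits between 163 and 203 CPM in C57BL/6J and at or under 5.65 CPM in the other strains, and Agtr1a sits under 1 CPM in CAST/EiJ alone.

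Between strains, the ranges of all libraries did not overlap for 4 of 7 members in NZO/HlLtJ against C57BL/6J (Agt, Agtr1a, Atp6ap2 and Mas1), for 2 of 7 in CAST/EiJ against C57BL/6J (Agt and Agtr1a) and for 3 of 7 in NZO/HlLtJ against CAST/EiJ (Agt, Agtr1a and Mas1). Over all 22873 genes tested, the ranges did not overlap for 26.3% in NZO/HlLtJ against C57BL/6J, 39.1% in CAST/EiJ against C57BL/6J and 43.9% in NZO/HlLtJ against CAST/EiJ. As a separate measure, 59.1% of all genes differed between NZO/HlLtJ and C57BL/6J by the edgeR quasi-likelihood test at a Benjamini-Hochberg adjusted p below 0.05, 66.8% between CAST/EiJ and C57BL/6J, and 72.1% between NZO/HlLtJ and CAST/EiJ. The members were chosen with these differences known, so nothing is read from their share.

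Agt encodes angiotensinogen, the only known precursor of the angiotensins, and lies at chr8:124556534-124569706 on the minus strand (GRCm38). Agt had 5.65, 3.85, 4.56 and 4.04 CPM in NZO/HlLtJ on 44% fat and 2.09, 3.23, 3.13 and 5.35 CPM in NZO/HlLtJ on 10% fat. CAST/EiJ had 1.8, 1.42, 1.63 and 1.86 CPM on 44% fat and 1.41, 1.41 and 1.83 CPM on 10% fat. C57BL/6J had 190, 181, 169 and 203 CPM on 44% fat and 190, 170, 178 and 163 CPM on 10% fat. All C57BL/6J libraries were far above all others, and every NZO/HlLtJ library was above every CAST/EiJ library, the closest being 2.09 CPM in NZO/HlLtJ and 1.86 CPM in CAST/EiJ. The mean was 3.99 ± 1.19 CPM in NZO/HlLtJ (SD, n = 8), 1.62 ± 0.21 in CAST/EiJ (n = 7) and 181 ± 13.4 in C57BL/6J (n = 8). Fitted levels were 45.5-fold lower in NZO/HlLtJ than in C57BL/6J, a log2 fold change of -5.51 (SE 0.10), and 111-fold lower in CAST/EiJ, at -6.79 (SE 0.12). NZO/HlLtJ was 2.44-fold above CAST/EiJ (log2 1.28, SE 0.14). The low levels rest on 74 to 222 counts a library in NZO/HlLtJ and 45 to 136 in CAST/EiJ, against 3555 to 7255 in C57BL/6J. Without the 5 libraries that stood apart, the log2 fold changes against C57BL/6J were -5.7 in NZO/HlLtJ and -6.8 in CAST/EiJ.

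The genes around Agt are given as a description. Agt was taken here as the member with the widest strain difference, so smaller differences in its neighbours were built into the choice. Within 500 kb of Agt, 17 other genes were tested, and none of them had a log2 fold change below -1.6 in NZO/HlLtJ against C57BL/6J or below -1.85 in CAST/EiJ against C57BL/6J, both values belonging to Pgbd5. Of these 17, 5 were higher and 5 lower in NZO/HlLtJ than in C57BL/6J by the edgeR quasi-likelihood test with adjustment over all genes. Over all genes, 30.4% were higher and 28.7% lower there. In CAST/EiJ against C57BL/6J 4 were higher and 7 lower, beside 32.7% and 34.1% of all genes. Nothing is read from these counts, which lie near the shares of genes at large. Between NZO/HlLtJ and CAST/EiJ, 6 were higher and 5 lower, beside 39.6% and 32.5% of all genes. In that comparison Capn9, which encodes a calpain protease, had a log2 fold change of 1.48 (SE 0.39, adjusted p = 0.0014 by edgeR), above the 1.28 of Agt, at means of 0.436 CPM in NZO/HlLtJ and 0.152 CPM in CAST/EiJ.

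**Figure D2:**
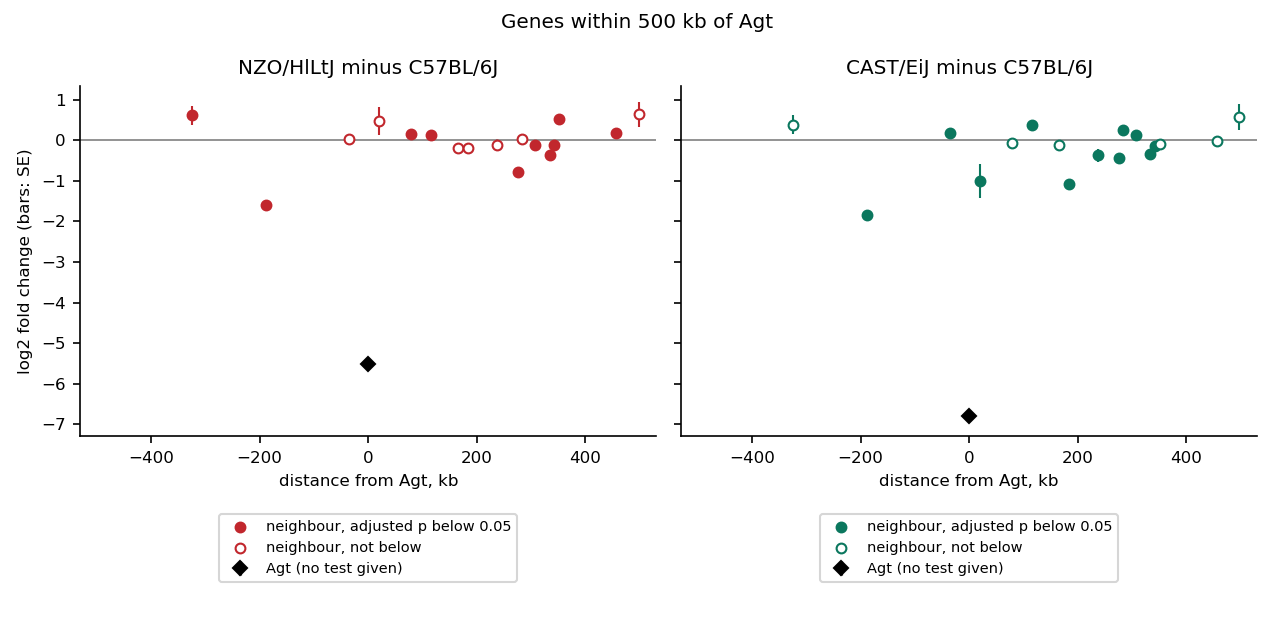
The panels plot the log2 fold change of each tested gene within 500 kb of Agt against its distance from Agt in kb, in NZO/HlLtJ and in CAST/EiJ minus C57BL/6J, with SE bars and filled points for an adjusted p below 0.05. Agt, the diamond, lies at -5.51 and -6.79, while its neighbours lie at or above -1.6 and -1.85.

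The 5 genes with group means most like those of Agt were found by the root mean square difference of the 6 centred group means of log2 CPM, among 13996 candidates. Kif16bos differed by 0.39, Rnase10 by 0.52, Grtp1 by 0.62, Tbc1d22bos by 0.72 and Nudt12os by 0.77. Grtp1, the most abundant of them, had 0.912 ± 0.264 CPM in NZO/HlLtJ (SD, n = 8), 0.747 ± 0.279 in CAST/EiJ (n = 7) and 34.8 ± 3.23 in C57BL/6J (n = 8). Rnase10, known from the epididymis, had 0.072 ± 0.0882 CPM in NZO/HlLtJ (SD, n = 8), 0.0456 ± 0.049 in CAST/EiJ (n = 7) and 4.5 ± 0.265 in C57BL/6J (n = 8).

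Angiotensinogen is known from liver and fat, so their markers were read beside it. All 7 adipocyte markers were in the table, and their summed level was 5.86 to 9.03 CPM in NZO/HlLtJ, 17 to 29.1 in CAST/EiJ and 7.92 to 14.1 in C57BL/6J. The sum was highest in CAST/EiJ, where the libraries of 2 of the 7 genes, Plin1 and Thrsp, lay above all of C57BL/6J. The other 5 overlapped, and over all genes the ranges of these strains did not overlap for 39.1%, so nothing is read from the 2. The 6 liver markers summed to 2.1 to 3.48 CPM in NZO/HlLtJ, 0.414 to 0.862 in CAST/EiJ and 1.26 to 2.3 in C57BL/6J. Among them Alb reached at most 0.157 CPM in any library, Ttr 0.189 and Apoa1 0.237. Serpina1a reached 1.53 CPM, Fgb 1.31 and Apob 0.777, and by mean Serpina1a and Fgb were highest in NZO/HlLtJ, at 1.02 and 0.977 CPM, while Apob was highest in C57BL/6J, at 0.567 CPM. Of 9 epididymis and rete testis markers 3 were in the table, Crisp1, Cst8 and Rnase10, and summed to 81.4 to 91.3 CPM in NZO/HlLtJ, 52.4 to 159 in CAST/EiJ and 167 to 188 in C57BL/6J. That sum was highest in C57BL/6J, and most of it was Cst8, at 84.8 ± 3.23 CPM in NZO/HlLtJ (SD, n = 8), 60.2 ± 4.4 in CAST/EiJ (n = 7) and 170 ± 6.87 in C57BL/6J (n = 8). Crisp1 went another way, with a mean of 14.2 CPM in CAST/EiJ, which rests on the library at 99 CPM, and 1.86 in C57BL/6J. Rnase10 was one of the genes picked from these data as most like Agt, so its order is no separate observation. The part of the adipocyte, liver and epididymal markers in the Agt levels was not tested.

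Ace encodes angiotensin-converting enzyme, which cuts angiotensin I to angiotensin II and breaks bradykinin, and lies at chr11:105967945-105989964 on the plus strand. Ace ranged from 507 to 580 CPM on 44% fat and 508 to 639 on 10% fat in NZO/HlLtJ, from 576 to 645 and 528 to 600 in CAST/EiJ, and from 636 to 693 and 547 to 702 in C57BL/6J. With both diets pooled, the strains overlapped. The mean was 568 ± 45.9 CPM in NZO/HlLtJ (SD, n = 8), 592 ± 37.6 in CAST/EiJ (n = 7) and 647 ± 53.8 in C57BL/6J (n = 8), with log2 fold changes of -0.19 (SE 0.05) in NZO/HlLtJ and -0.14 (SE 0.05) in CAST/EiJ against C57BL/6J. In GENCODE M21 the long Ace transcript has 25 exons and the short one, which starts in intron 12, has 14. Counts per gene cannot tell these transcripts apart. The 7 markers of elongating spermatids, the cells known for the short form, summed to 8439 to 10945 CPM in NZO/HlLtJ, 11081 to 12579 in CAST/EiJ and 10197 to 12092 in C57BL/6J. Their median was lowest in NZO/HlLtJ, as the Ace mean was, and so were the medians of spermatocyte and round spermatid markers. Among the spermatocyte markers, though, Sycp3 was highest in NZO/HlLtJ by mean, and Spo11 and Dmc1 were lowest in CAST/EiJ. The part of these germ cell markers in the Ace level was not tested. An antisense gene across Ace, Gm11651, had at most 4.95 CPM on average in any strain.

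Agtr1a encodes the main angiotensin II type 1 receptor of the mouse and lies at chr13:30336441-30382867 on the plus strand. Agtr1a had 15.1, 10.6, 11 and 12.7 CPM in NZO/HlLtJ on 44% fat and 13.7, 12, 14.1 and 13.3 CPM on 10% fat. CAST/EiJ had 0.743, 0.569, 0.828 and 0.552 CPM on 44% fat and 0.45, 0.595 and 0.889 CPM on 10% fat. C57BL/6J had 18, 18.1, 17.7 and 19.2 CPM on 44% fat and 18, 16.9, 17.6 and 21.5 CPM on 10% fat. CAST/EiJ was far below both other strains, and NZO/HlLtJ lay below C57BL/6J with 15.1 and 16.9 CPM as the nearest libraries. The mean was 12.8 ± 1.55 CPM in NZO/HlLtJ (SD, n = 8), 0.661 ± 0.161 in CAST/EiJ (n = 7) and 18.4 ± 1.43 in C57BL/6J (n = 8). Fitted levels were 27.4-fold lower in CAST/EiJ than in C57BL/6J (log2 -4.77, SE 0.11), on 15 to 56 counts a library, and 1.43-fold lower in NZO/HlLtJ than in C57BL/6J (log2 -0.52, SE 0.07). NZO/HlLtJ was 19.1-fold above CAST/EiJ (log2 4.25, SE 0.11). Agt and Agtr1a thus shared the lowest level in CAST/EiJ and the highest in C57BL/6J, but NZO/HlLtJ stood near CAST/EiJ for Agt and near C57BL/6J for Agtr1a.

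Rodents carry a second type 1 receptor gene, Agtr1b, a near copy of Agtr1a, and reads can be divided between such copies. Agtr1b had 0.843 ± 0.286 CPM in NZO/HlLtJ (SD, n = 8), 1.85 ± 0.256 in CAST/EiJ (n = 7) and 0.845 ± 0.117 in C57BL/6J (n = 8). It was higher in CAST/EiJ than in C57BL/6J, with a log2 fold change of 1.14 (SE 0.17, adjusted p = 9.4e-07 by edgeR). The part of such division of reads in the Agtr1a level was not tested. Agtr1b was named after its values were seen.

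Markers of myoid and smooth muscle cells were read beside Agtr1a. The 7 markers summed to 381 to 408 CPM in NZO/HlLtJ, 213 to 246 in CAST/EiJ and 373 to 409 in C57BL/6J. The CAST/EiJ sums did not overlap those of the other strains. In NZO/HlLtJ the median sum was 396 CPM against 394 in C57BL/6J, while Agtr1a was lower in every NZO/HlLtJ library. Gene by gene, the CAST/EiJ libraries lay below all of C57BL/6J for 3 of the 7, with the largest gap in Actg2, and overlapped C57BL/6J for 4. Over all genes tested, the ranges of these strains did not overlap for 39.1%, so nothing is read from the 3 of 7. By mean, Actg2 had 90.6 CPM in CAST/EiJ and 213 CPM in C57BL/6J, the largest part of the C57BL/6J sum. Markers of Leydig cells, 8 of 8 in the table, summed to 1117 to 1617 CPM in NZO/HlLtJ, 512 to 696 in CAST/EiJ and 559 to 820 in C57BL/6J, so NZO/HlLtJ stood highest there and CAST/EiJ overlapped C57BL/6J. Gene by gene, NZO/HlLtJ lay above all of C57BL/6J for 5 of the 8, below for 0, and overlapped for 3. Over all genes, the ranges of NZO/HlLtJ and C57BL/6J did not overlap for 26.3%. By mean, Cyp11a1 was lowest in NZO/HlLtJ, at 77.4 CPM against 153 in CAST/EiJ and 110 in C57BL/6J. Star was also lowest there by mean, with overlapping ranges. The sums of 7 endothelial markers overlapped in all strains, at 52.4 to 60.3 CPM in NZO/HlLtJ, 51 to 57.1 in CAST/EiJ and 53.7 to 66.3 in C57BL/6J, but single genes in them went opposite ways. Flt1 was high in CAST/EiJ, at 4.33 to 5.44 CPM in NZO/HlLtJ, 14.7 to 19.3 in CAST/EiJ and 5.23 to 7.21 in C57BL/6J. Vwf was low in CAST/EiJ, at 20 to 25.8 CPM in NZO/HlLtJ, 13.1 to 18.7 in CAST/EiJ and 25.7 to 32.2 in C57BL/6J. The part of the myoid markers in the Agtr1a level was not tested. Without the 5 libraries that stood apart, the log2 fold change of Agtr1a in CAST/EiJ against C57BL/6J was -4.72.

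**Figure D3:**
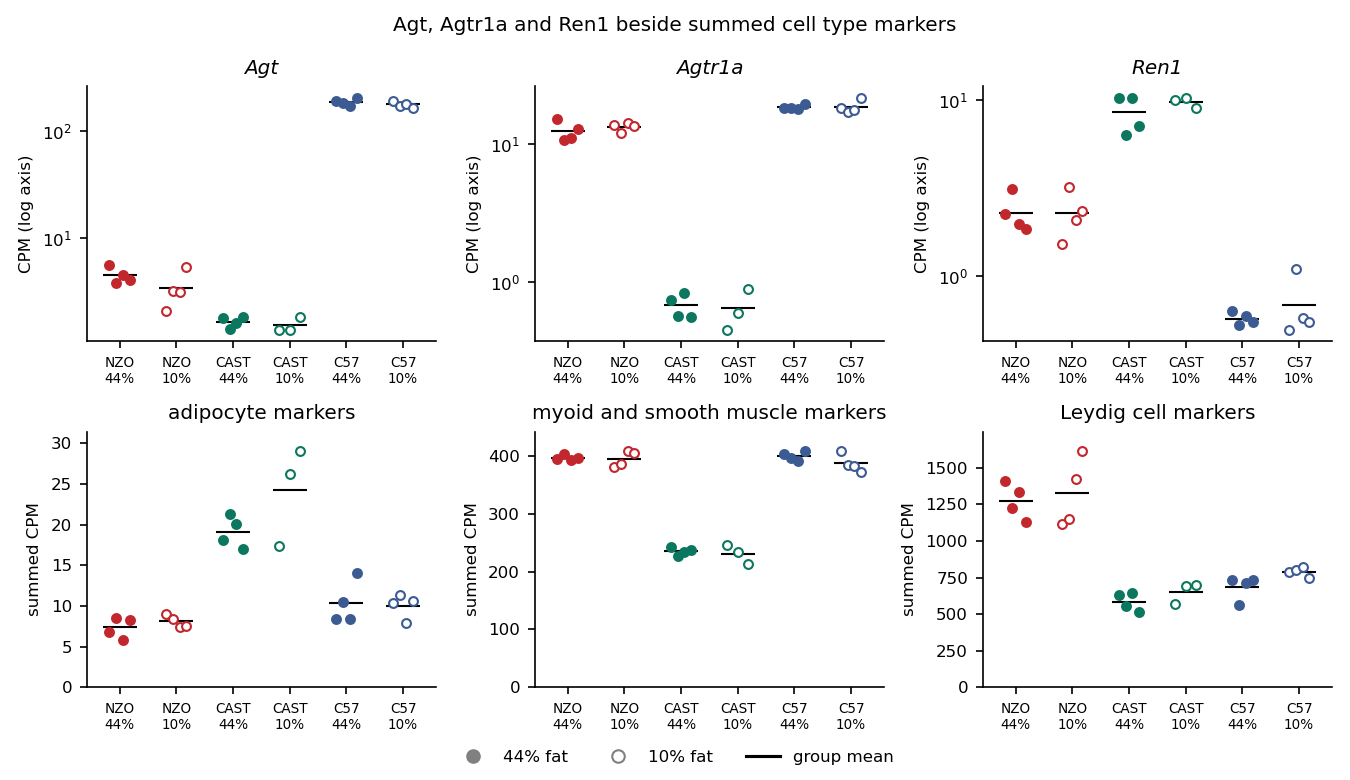
The upper panels plot Agt, Agtr1a and Ren1 in CPM on log axes and the lower panels the summed CPM of adipocyte, myoid and smooth muscle, and Leydig cell markers on linear axes, with 1 point per library, filled for 44% fat and open for 10% fat. Myoid sums in CAST/EiJ lie at 213 to 246 CPM, below those of the other strains, and adipocyte sums are highest in CAST/EiJ.

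The 5 genes most like Agtr1a over the 6 group means were Runx2os3, with a root mean square difference of 0.08 on the log2 scale, Fam20a with 0.09, Cep112os1 with 0.10, Tac1 with 0.19 and Fbxw27 with 0.20. Fam20a, which encodes a pseudokinase that aids the phosphorylation of secreted proteins, had 21.5 ± 2.66 CPM in NZO/HlLtJ (SD, n = 8), 1.06 ± 0.179 in CAST/EiJ (n = 7) and 32.9 ± 2.18 in C57BL/6J (n = 8). The neuropeptide gene Tac1, the precursor of substance P, had 2.05 ± 0.382 CPM in NZO/HlLtJ (SD, n = 8), 0.0672 ± 0.0568 in CAST/EiJ (n = 7) and 2.95 ± 0.463 in C57BL/6J (n = 8).

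Mas1 encodes the Mas receptor, which binds an angiotensin peptide shorter than angiotensin II, and lies at chr17:12841079-12868143 on the minus strand. Mas1 had 31, 31.6, 27.9 and 29.3 CPM in NZO/HlLtJ on 44% fat and 32.3, 32.2, 27.9 and 26.4 CPM on 10% fat. CAST/EiJ had 44.6, 45.1, 40.6 and 45.1 CPM on 44% fat and 42.7, 49.4 and 40.5 CPM on 10% fat. C57BL/6J had 40.5, 41, 45 and 37.3 CPM on 44% fat and 36.7, 36.5, 41.3 and 41 CPM on 10% fat. NZO/HlLtJ was the low strain and overlapped neither of the others, while CAST/EiJ and C57BL/6J overlapped. The mean was 29.8 ± 2.25 CPM in NZO/HlLtJ (SD, n = 8), 44 ± 3.09 in CAST/EiJ (n = 7) and 39.9 ± 2.91 in C57BL/6J (n = 8), which gave log2 fold changes of -0.42 (SE 0.05) in NZO/HlLtJ against C57BL/6J and -0.56 (SE 0.05) in NZO/HlLtJ against CAST/EiJ. The 6 markers of round spermatids had the same order in their medians, with summed levels of 440 to 491 CPM in NZO/HlLtJ, 574 to 623 in CAST/EiJ and 540 to 638 in C57BL/6J. Within that list Spaca7 was lower in CAST/EiJ, at 50.9 CPM, than in C57BL/6J, at 61.7. Spermatocyte sums shared the order, with medians of 1551 CPM in NZO/HlLtJ, 1894 in CAST/EiJ and 1801 in C57BL/6J. By mean, Piwil1, Pgk2 and Hormad1 kept that order. Sycp3 was highest in NZO/HlLtJ, Sycp1 was highest in C57BL/6J, and Spo11 and Dmc1 were lowest in CAST/EiJ. Elongating spermatid sums had medians of 9415, 11599 and 11576 CPM in the same strains, and CAST/EiJ overlapped C57BL/6J. Prm2, Tnp1, Odf1 and Hmgb4 kept the order by mean, while Prm1, Tnp2 and Gapdhs were highest in C57BL/6J. The part of these germ cell markers in the Mas1 level was not tested. The antisense gene Airn, which overlaps Mas1, had at most 0.555 CPM on average in any strain.

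Atp6ap2 encodes the prorenin receptor, which is also an accessory subunit of the vacuolar proton pump, and lies at chrX:12587801-12617049 on the plus strand. Atp6ap2 had 16.5, 19.9, 21.2 and 18 CPM in NZO/HlLtJ on 44% fat and 16.8, 18.3, 17.8 and 21.6 CPM on 10% fat. CAST/EiJ had 14.9, 15.2, 14.1 and 13.4 CPM on 44% fat and 16, 14.7 and 17.2 CPM on 10% fat. C57BL/6J had 13.8, 12.5, 12.9 and 13.4 CPM on 44% fat and 13.1, 14.2, 15.9 and 14 CPM on 10% fat. NZO/HlLtJ was the high strain and its lowest library, at 16.5 CPM, was just above the highest of C57BL/6J, at 15.9 CPM, whereas CAST/EiJ overlapped both. The log2 fold change was 0.45 (SE 0.06) in NZO/HlLtJ and 0.15 (SE 0.06) in CAST/EiJ, each against C57BL/6J. Both NZO/HlLtJ libraries that stood apart had the top Atp6ap2 level of their diet group, at 21.2 and 21.6 CPM, and without the 5 libraries the log2 fold change in NZO/HlLtJ against C57BL/6J was 0.37.

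Enpep encodes glutamyl aminopeptidase, which turns angiotensin II into angiotensin III, and lies at chr3:129269175-129332720 on the minus strand. Enpep had 0.757, 0.911, 1.13 and 0.696 CPM in NZO/HlLtJ on 44% fat and 0.395, 0.538, 0.582 and 1.18 CPM on 10% fat. CAST/EiJ had 1.75, 1.73, 1.36 and 0.581 CPM on 44% fat and 1.5, 1.13 and 1.64 CPM on 10% fat. C57BL/6J had 0.411, 0.526, 0.206 and 0.522 CPM on 44% fat and 0.785, 0.428, 0.306 and 0.505 CPM on 10% fat. CAST/EiJ libraries were mostly the highest, with the one at 0.581 CPM among those of the other strains, so all 3 strains overlapped. The log2 fold change against C57BL/6J was 1.6 (SE 0.26) in CAST/EiJ and 0.73 (SE 0.26) in NZO/HlLtJ, on 7 to 30 counts a library in C57BL/6J. Without the 5 libraries that stood apart it was 1.48 in CAST/EiJ and 0.39 in NZO/HlLtJ. The 5 genes most like Enpep were Ets1, with a root mean square difference of 0.09, Lcp2 with 0.10, Apobec3 with 0.10, Igf1 with 0.11 and Steap4 with 0.11. Ets1 and Lcp2 are known from lymphocytes, and Ets1 had 7.33 ± 1.24 CPM in NZO/HlLtJ (SD, n = 8), 12.2 ± 0.852 in CAST/EiJ (n = 7) and 4.39 ± 0.302 in C57BL/6J (n = 8).

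Lnpep encodes an aminopeptidase that binds angiotensin IV and breaks oxytocin, and lies at chr17:17527723-17624489 on the minus strand. Lnpep ranged from 24.4 to 30.6 CPM on 44% fat and 18.6 to 26 CPM on 10% fat in NZO/HlLtJ, from 17.6 to 21.9 and 18.4 to 23.7 CPM in CAST/EiJ, and from 22.8 to 31.7 and 24 to 32.1 CPM in C57BL/6J. With both diets pooled, all strains overlapped. The mean was 25.6 ± 3.42 CPM in NZO/HlLtJ (SD, n = 8), 20.4 ± 2.18 in CAST/EiJ (n = 7) and 27.6 ± 4.22 in C57BL/6J (n = 8), and the log2 fold change was -0.11 (SE 0.08) in NZO/HlLtJ and -0.42 (SE 0.09) in CAST/EiJ, each against C57BL/6J.

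The rest of the pathway was read from a list of 26 genes, of which 23 were in the table and 22 were tested. In NZO/HlLtJ against C57BL/6J 14 of the 22 passed the edgeR quasi-likelihood test, 10 higher and 4 lower, beside 30.4% of all genes higher and 28.7% lower. In CAST/EiJ against C57BL/6J 18 passed, 9 higher and 9 lower, beside 32.7% of all genes higher and 34.1% lower. In NZO/HlLtJ against CAST/EiJ 17 passed, 10 higher and 7 lower, beside 39.6% and 32.5%. The median log2 fold change of the 22 was 0.15 in NZO/HlLtJ and -0.11 in CAST/EiJ against C57BL/6J, beside 0.01 and -0.0012 over all genes, and 0.15 in NZO/HlLtJ against CAST/EiJ, beside 0.06 over all genes. Of the 6 genes of renin and its processing, 5 were higher and 0 lower in NZO/HlLtJ than in C57BL/6J, 3 were higher and 1 lower in CAST/EiJ than in C57BL/6J, and 3 were higher and 2 lower in NZO/HlLtJ against CAST/EiJ. Of the 12 peptidases, 5 were higher and 3 lower in NZO/HlLtJ, and 5 higher and 6 lower in CAST/EiJ, each against C57BL/6J, and 7 were higher and 4 lower in NZO/HlLtJ against CAST/EiJ. Of the 4 receptors and partners tested, 0 were higher and 1 lower in NZO/HlLtJ than in C57BL/6J, 1 was higher and 2 were lower in CAST/EiJ than in C57BL/6J, and 0 were higher and 1 lower in NZO/HlLtJ against CAST/EiJ.

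Ren1, the renin gene, had the largest difference in each pair of strains among those of these genes with at least 1 CPM on average, and its order was not that of Agt. Ren1 had 2.24, 3.11, 1.98 and 1.84 CPM in NZO/HlLtJ on 44% fat and 1.52, 3.2, 2.08 and 2.34 CPM on 10% fat. CAST/EiJ had 10.3, 6.36, 10.2 and 7.14 CPM on 44% fat and 9.95, 10.3 and 9.05 CPM on 10% fat. C57BL/6J had 0.63, 0.526, 0.59 and 0.551 CPM on 44% fat and 0.497, 1.1, 0.581 and 0.551 CPM on 10% fat. The 3 strains did not overlap, with CAST/EiJ highest and C57BL/6J lowest. Ren1 was 14.4-fold higher in CAST/EiJ than in C57BL/6J (log2 3.84, SE 0.17, adjusted p = 6.65e-18 by edgeR), 3.62-fold higher in NZO/HlLtJ than in C57BL/6J (log2 1.85, SE 0.18, adjusted p = 9.56e-10) and, between NZO/HlLtJ and CAST/EiJ, 3.97-fold lower in NZO/HlLtJ (log2 -1.99, SE 0.14, adjusted p = 3.69e-13). The strain with the most substrate gene thus had the least renin gene. Some inbred strains carry a further renin gene, Ren2, which is not analysed here, and reads of such a copy could be counted as Ren1.

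Among the peptidases, Mme, which encodes neprilysin, had 30.6 ± 2.82 CPM in NZO/HlLtJ (SD, n = 8), 8.94 ± 2.5 in CAST/EiJ (n = 7) and 18.5 ± 2.01 in C57BL/6J (n = 8). Mme was higher in NZO/HlLtJ than in C57BL/6J (log2 0.72, SE 0.09, adjusted p = 1.4e-07 by edgeR) and than in CAST/EiJ (log2 1.8, SE 0.10, adjusted p = 3.79e-15). Prep, the gene of prolyl endopeptidase, had 18.7 ± 2.18 CPM in NZO/HlLtJ and 12.2 ± 0.868 in C57BL/6J (SD, n = 8 each), a log2 fold change of 0.62 (SE 0.06, adjusted p = 1.28e-09 by edgeR). Rnpep, which encodes aminopeptidase B, was lower in CAST/EiJ at 15.4 ± 0.869 CPM (SD, n = 7), against 35.6 ± 1.12 in C57BL/6J (n = 8), a log2 fold change of -1.2 (SE 0.04, adjusted p = 2.37e-21 by edgeR). Klk1, of the kallikreins that release kinins, was higher in CAST/EiJ at 4.14 ± 0.643 CPM (SD, n = 7), against 1.47 ± 0.449 in C57BL/6J (n = 8), a log2 fold change of 1.49 (SE 0.16, adjusted p = 1.69e-09 by edgeR), and by the same test NZO/HlLtJ was below CAST/EiJ (log2 -1.39, SE 0.15, adjusted p = 3.74e-09). Klk1 has close copies, and both Klk1 and Rnpep had counts that were not whole numbers, so the assignment of their reads is uncertain.

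**Figure D4:**
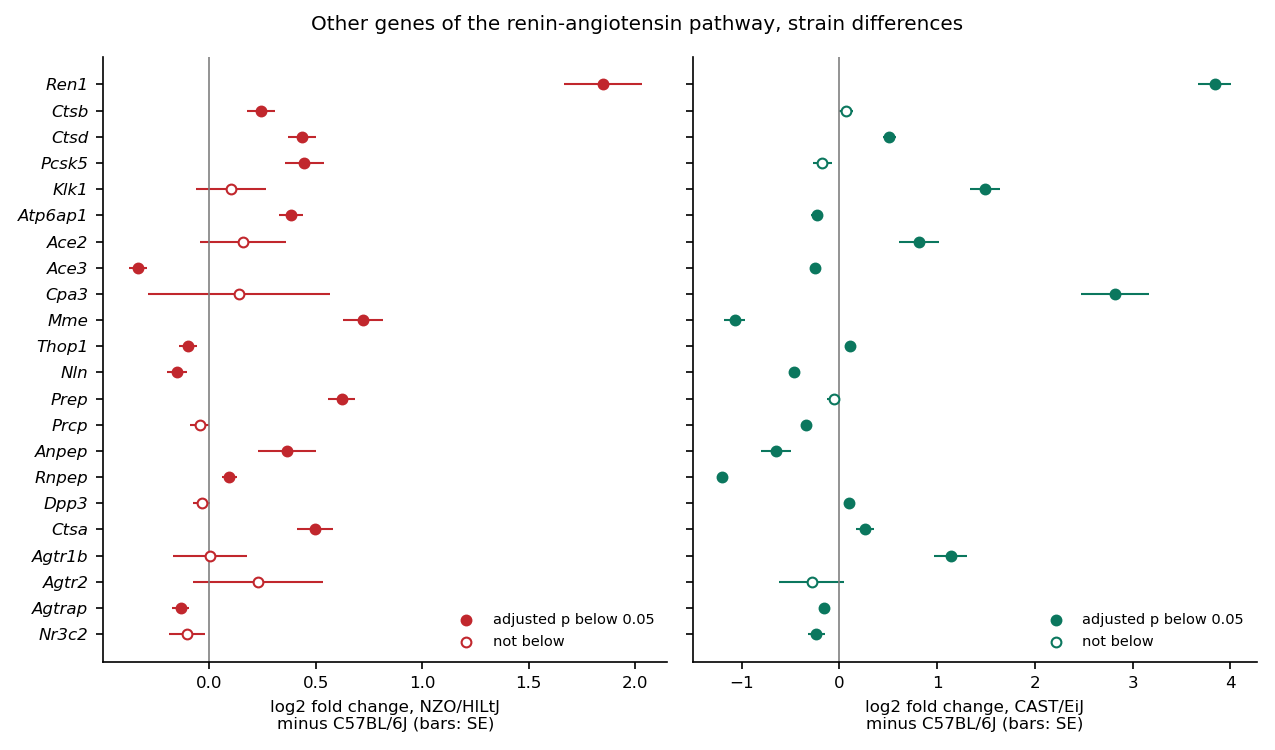
The panels plot the log2 fold change with its SE for the 22 other pathway genes in NZO/HlLtJ and in CAST/EiJ minus C57BL/6J, in the order renin and processing, peptidases, receptors and partners, with filled points for an adjusted p below 0.05 by edgeR. Ren1 lies farthest to the right in both, at 1.85 and 3.84.

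Diet was tested for each member within each strain, as 44% fat minus 10% fat. In NZO/HlLtJ 0 of 7 members passed, while 1 gene of all tested (0.00437%) did. In CAST/EiJ 0 of 7 passed, as did 0% of all genes. In C57BL/6J 0 of 7 passed, against 2 genes of all (0.00874%), and averaged over strains 0 of 7 and 0% of all genes passed. DESeq2 also called 0 members in each of these, with 7, 3, 2 and 6 genes of all called. At an unadjusted p below 0.05, edgeR gave 1 member in NZO/HlLtJ, Agt, and 0 elsewhere, against 1555, 941, 670 and 896 of all genes. In all 21 pairs of a member and a strain, the libraries of both diets overlapped, and over all genes the diets did not overlap for 3.58% in NZO/HlLtJ, 5.29% in CAST/EiJ and 2.09% in C57BL/6J, so overlap is the rule for genes at large.

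Agt had the highest diet estimate of the members in each strain, but the intervals were wide. The log2 fold change of Agt was 0.37 in NZO/HlLtJ (SE 0.16, 95% interval 0.03 to 0.71, adjusted p = 0.723 by edgeR), where the NZO/HlLtJ 10% fat library that stood apart, at 5.35 CPM, was the highest of its group and the other libraries of that group had 2.09 to 3.23 CPM. Without that library the estimate was 0.67 with an adjusted p = 0.0781, and without the 5 libraries that stood apart it was 0.66 with an adjusted p = 0.349, over the same edgeR test. Other choices lowered it. Leaving out each library in turn gave 0.205 to 0.67, and limma on the deposited log2 values gave 0.163. In CAST/EiJ the estimate for Agt was 0.12 (95% interval -0.39 to 0.63) and in C57BL/6J 0.09 (-0.12 to 0.29). For Ace the intervals were narrower, at -0.22 to 0.06 in NZO/HlLtJ, -0.05 to 0.26 in CAST/EiJ and -0.10 to 0.18 in C57BL/6J. For Mas1 they were -0.14 to 0.17 in NZO/HlLtJ, -0.17 to 0.15 in CAST/EiJ and -0.07 to 0.23 in C57BL/6J. Enpep, which rests on few counts in each strain, had wide intervals, with -0.35 to 1.06 in NZO/HlLtJ, -0.73 to 0.63 in CAST/EiJ and -1.12 to 0.53 in C57BL/6J. A p that misses the threshold does not show that the diets gave equal levels.

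**Figure D5:**
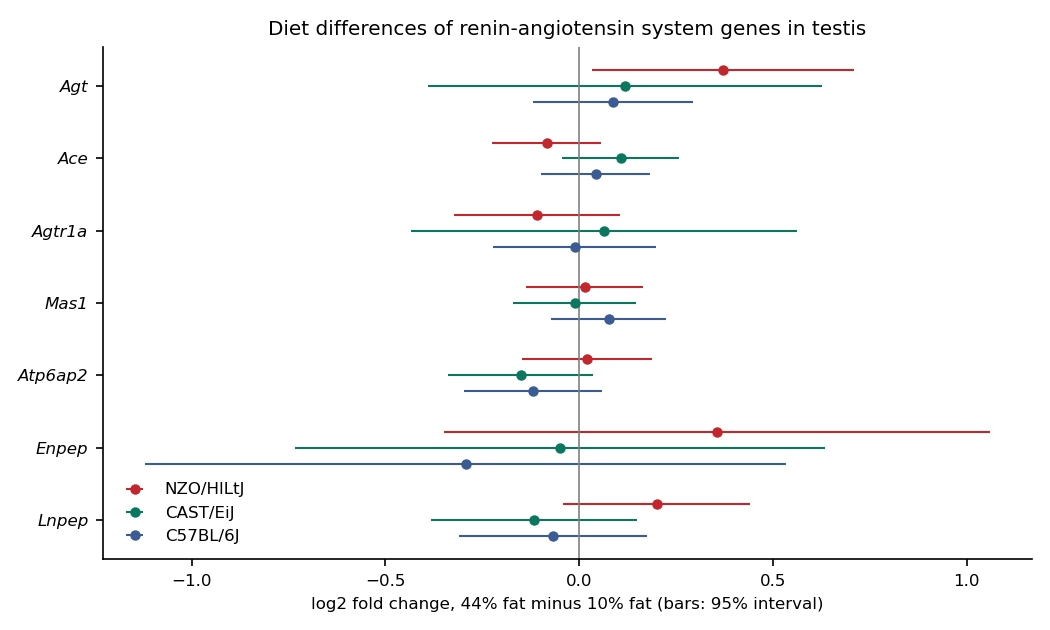
For each member the log2 fold change of 44% fat minus 10% fat is plotted in NZO/HlLtJ, CAST/EiJ and C57BL/6J with its 95% interval. Every interval but that of Agt in NZO/HlLtJ (0.03 to 0.71) includes 0, and that value did not pass after adjustment over all genes.

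Whether the diet difference itself differed between strains was tested as an interaction, with all strains at once and for each pair of strains. By the edgeR quasi-likelihood test 0 of 7 members passed with all strains at once, with a smallest adjusted p of 0.943, and 0% of all genes passed. For NZO/HlLtJ minus C57BL/6J, CAST/EiJ minus C57BL/6J and NZO/HlLtJ minus CAST/EiJ, 0 of 7 members and 0% of all genes passed in each. DESeq2 called 0 members there, with 8 genes of all with all strains at once and 3, 0 and 7 in the pairs. At an unadjusted p below 0.05 there were 0 members and, over all genes, 1121 with all strains at once and 926, 919 and 1704 in the pairs. Ace gave the smallest p of the members, unadjusted p = 0.0706 and adjusted p = 0.691 by edgeR, for NZO/HlLtJ minus CAST/EiJ, with a log2 difference of -0.19 (SE 0.10). Of the 22 other pathway genes 0 passed in any diet or interaction comparison, and at an unadjusted p below 0.05 there were 0 in NZO/HlLtJ, 1 in CAST/EiJ, 1 in C57BL/6J, 0 averaged over strains and 0 in each interaction.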

How the data were processed

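RNA of testis was sequenced as polyA libraries and deposited as 2 tables. The first table that the authors deposited gives estimated counts per gene, of which 23.1% were not whole (tolerance 1e-06). Each of its 28861 genes had a count above 0 in at least 12 libraries. The second deposited table holds variance-stabilised log2 values made by the authors. GRCm38 and DESeq2 are named in the submitters' processing notes. Not given in the sources used here are the aligner, the counting tool and how strand and variants between strains were treated.

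Estimated counts were rounded. Low genes were removed with filterByExpr for the 6 groups, and 22873 genes remained. The main test was edgeR's quasi-likelihood F test (edgeR 4.0.16, R 4.3.3), fitted to all 23 libraries at once with a mean for each group, TMM scaling and Benjamini-Hochberg adjustment over all genes at 0.05. Diet was compared as 44% fat minus 10% fat within strains and averaged over them, with strain by diet interactions, and strains were compared in pairs with diets averaged. Fold changes carry the SE of the fit, and intervals are 95%. Exon lengths came from GENCODE M21. Alternatives were DESeq2 1.42.0, its size factors, no filter, limma 3.58.1 on the log2 values, the run of ID numbers in the titles as a covariate, fits on fewer groups, and each library left out. Leaving out the 5 libraries that stood apart was chosen after seeing the data. A run of the fit on simulated counts covered the diet effect in C57BL/6J alone. Those counts were drawn from the fitted means and spread, and the outcome is not given here.

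Members, gene lists, marker lists and the naming rule were chosen with earlier results of these data known. Members are all named. Other pathway genes are named if they pass in a diet comparison, or if they are among the 3 largest passing differences of a strain comparison with a mean of at least 1 CPM. For members whose group means span at least 1 on the log2 scale (prior count 2), the 5 genes with the most similar group means are named, leaving out those without an official symbol. Over 33 pairs of replicates, chi-square per degree of freedom was 3.34 to 17.6, so no library was taken for a copy of another.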

Additional observations from a re-analysis of the deposited data

Results flagged for a closer look

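Among 35 groups of 4 libraries tested, 2 held a library far from the rest of its group, where chance gives about 1 in 20. Lnpep had 18.6 CPM in NZO/HlLtJ 10% fat replicate 3, while the other 3 libraries of the group had 25.1 to 26 CPM. Mas1 had 40.6 CPM in CAST/EiJ 44% fat replicate 3, while the others had 44.6 to 45.1 CPM. Neither library was among the 5 that stood apart over all genes. The CAST/EiJ 10% fat group has 3 libraries and was not tested in this way.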

How the results depend on the processing

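No paired analysis was possible because the labels give no replicate numbers that groups share. In every diet and interaction comparison the count of members called was 0 under all alternatives. Of 1442 diet and interaction values of members recomputed, 1433 moved by less than the spread between replicates and 0 had an adjusted p below 0.05, the smallest being 0.0781 for Agt in NZO/HlLtJ without NZO/HlLtJ 10% fat replicate 4, where the estimate was 0.67. Agtr1a in CAST/EiJ had a diet estimate of 0.39 without CAST/EiJ 10% fat replicate 3. Of 672 strain values 662 moved as little, and all 10 others came from limma on the deposited log2 values, a transformation that compresses low levels: there, in NZO/HlLtJ against C57BL/6J, Agt was -3.94, Atp6ap2 0.27 and Enpep 0.11; in CAST/EiJ against C57BL/6J, Agt was -4.34, Agtr1a -1.86 and Enpep 0.30; and in NZO/HlLtJ against CAST/EiJ, Agt was 0.40, Agtr1a 1.51, Atp6ap2 0.18 and Enpep -0.18. Of the other pathway genes 8 passed in NZO/HlLtJ against C57BL/6J with the 10% fat groups alone, a fit on fewer libraries, against 14 with all groups. Leaving out each library in turn gave 12 to 14 there, 15 to 18 in CAST/EiJ against C57BL/6J and 15 to 18 in NZO/HlLtJ against CAST/EiJ. Without the 5 libraries that stood apart, these counts were 11, 17 and 17. Depth limits Enpep and, outside C57BL/6J, Agt and, in CAST/EiJ, Agtr1a most, since they rest on few counts.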
